A study of Mus musculus with 8 samples.

Results

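Igf1 and 8 genes of insulin and insulin-like growth factor (IGF) signalling were followed in macrophages prepared from mouse pancreatic islets, after 8 weeks on a high-fat diet (HFD) or on chow. The members were the rows of the deposited gene table whose symbol was Igf1, Igfbp4, Igf1r, Igf2r, Insr, Irs1, Irs2, Foxo1 or Foxo3. All 9 were found among the table's 48440 genes, each on 1 row. Igf1 was chosen by its p, the smallest of all genes in the comparison of the diets in these same libraries, and the other members were gathered around it with those results known. Diet differences of the members are therefore given as descriptions, and their p values are not printed. Members past a threshold are only counted and named, and nothing is read from that.

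All mice were wild-type C57BL/6J males, aged 16 weeks at collection, that had started their diet at 8 weeks of age. The HFD held 45% fat, 20% protein and a remaining 35% carbohydrate, and the chow held 8% fat with 21% protein and 71% carbohydrate. The cells carried the surface proteins CD11b and F4/80, which mark macrophages. Each diet had 4 libraries, HFD replicates 5 to 8 and chow replicates 1 to 4, and each library pooled extracts from 2 mice, so a library does not show how single mice vary. RNA was amplified from very small inputs, and levels are given as CPM, that is, counts relative to the library total after TMM scaling, which corrects that total for differences in composition.

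IGF1 and insulin are related peptide hormones that act through the receptor tyrosine kinases IGF1R and INSR. Both receptors phosphorylate the docking proteins IRS1 and IRS2, which recruit PI3-kinase and switch on the kinase Akt, and Akt holds FoxO transcription factors out of the nucleus. IGF-binding proteins such as IGFBP4 keep IGFs from their receptors, and IGF2R clears IGF2 and carries lysosomal enzymes without relaying an insulin-like signal. Most circulating IGF1 comes from the liver under growth hormone, and tissue macrophages are a known local source.

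Library totals ran from 4288666 to 6391250 counts, at which a count of 0 allows up to 0.468 to 0.708 CPM in a single library (3 counts of the scaled total, counting error only). Most sort and identity genes of macrophages were abundant. Csf1r, the receptor for the macrophage growth factor CSF1, was at 699 to 965 CPM in HFD and 825 to 1048 CPM in chow. Lower were Fcgr1, at 14.1 to 49.6 CPM in HFD and 22.0 to 127 CPM in chow, and Mertk, at 62.4 to 209 and 18.2 to 84.5 CPM. A list of dendritic cell markers summed to 138 to 268 CPM in HFD and 249 to 301 CPM in chow. Of these, Clec9a was at 11.9 to 32.7 CPM in HFD and 38.9 to 122 CPM in chow. Siglech, the largest part of that sum on average, was at 90.9 to 219 CPM in HFD and 160 to 212 CPM in chow. Of the 5 dendritic markers tested, 3 were higher and 2 lower in HFD, with a median log2 fold change of 0.37. The T and natural killer cell list had 4 of 6 markers at 0 in every library. The endothelial list summed to 1.00 to 13.7 CPM in HFD and 0 to 7.65 CPM in chow. Transcripts of exocrine acinar cells were very unequal, with sums of 72.9, 62.7, 1149 and 34.7 CPM in HFD replicates 5 to 8, against 0.225, 1.87, 1116 and 2309 CPM in chow replicates 1 to 4. The islet endocrine list summed to 965 to 1839 CPM in HFD and 459 to 1758 CPM in chow. Of its 11 tested markers 10 were higher in HFD, beside 48.6% of all genes tested. The part of acinar and endocrine RNA in the members' values was not tested beyond a fit with the islet endocrine list as covariate, given below. Transcripts of stellate cells and fibroblasts, the matrix-producing cells around islets, were unequal between libraries. The 16 markers summed to 458, 307, 241 and 106 CPM in HFD replicates 5, 6, 7 and 8, and to 24.5, 80.9, 133 and 91.3 CPM in chow replicates 1 to 4. Of these 16 markers 5, 3, 5 and 8 were at 0 in HFD replicates 5 to 8, and 13, 12, 12 and 11 in chow replicates 1 to 4. HFD replicates 5, 6 and 7 thus stood apart from the other 5 libraries in their collagen transcripts, and HFD replicate 8 stood with chow.

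Igf1, the ligand, lies on chromosome 10 (87858265 to 87937042, plus strand, GRCm38). It was at 293, 124, 169 and 31.9 CPM in HFD replicates 5, 6, 7 and 8, against 14.4, 22.6, 21.1 and 15.3 CPM in chow replicates 1, 2, 3 and 4. Every HFD library was above every chow library, and HFD replicate 8 lay far nearer to chow than the other HFD libraries did. Igf1 averaged 155 ± 108 CPM in HFD and 18.4 ± 4.13 CPM in chow (SD, n = 4 each), 8.41-fold higher in HFD, with a fitted log2 fold change of 3.07 (SE 0.51, HFD over chow). HFD replicate 5 alone was 15.9-fold above the chow mean and HFD replicate 8 was 1.74-fold above it. The spread was also unequal: the highest HFD library exceeded the lowest 9.17-fold, while in chow that ratio was 1.57. On the log2 scale the SD was 1.35 in HFD and 0.32 in chow, beside medians of 0.80 and 0.92 over all tested genes. In bulk RNA of pooled cells, a different share of cells that make a transcript cannot be told apart from a different amount per cell.

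Igfbp4, which encodes an IGF-binding protein that restrains IGF action, lies on chromosome 11 (99041244 to 99054392, plus strand). It was at 52.6, 36.1, 13.5 and 17.3 CPM in HFD replicates 5 to 8, against 13.7, 10.3, 7.46 and 5.43 CPM in chow replicates 1 to 4. HFD replicates 5 and 6 were clearly highest, HFD replicate 8 was above every chow library, and HFD replicate 7 fell just inside the chow range. Igfbp4 averaged 29.9 ± 18.1 CPM in HFD and 9.23 ± 3.59 CPM in chow (SD, n = 4 each), with a log2 fold change of 1.69 (SE 0.74). In HFD replicate 8 Igfbp4 was 1.26 times and Igf1 1.41 times their highest chow level, while Igf2r was not higher there.

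Igf2r, the cation-independent mannose 6-phosphate receptor, lies on chromosome 17 (12682406 to 12769664, minus strand). In mice it is imprinted, and its antisense neighbour Airn silences the paternal copy. It was at 17.7, 19.6, 16.9 and 0.402 CPM in HFD replicates 5, 6, 7 and 8, the last from 2 reads, against 0, 2.19, 0 and 1.42 CPM in chow replicates 1 to 4. HFD replicates 5, 6 and 7 were thus high and close together, while HFD replicate 8 lay among the chow libraries. Igf2r averaged 13.6 ± 8.90 CPM in HFD and 0.900 ± 1.09 CPM in chow (SD, n = 4 each), with a log2 fold change of 3.87 (SE 1.50) that rests on HFD replicates 5, 6 and 7. It passed the filter on low counts only through those libraries and chow replicate 2. Airn overlaps Igf2r on the opposite strand and had 2 counts over all 8 libraries.

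**Figure D1:**
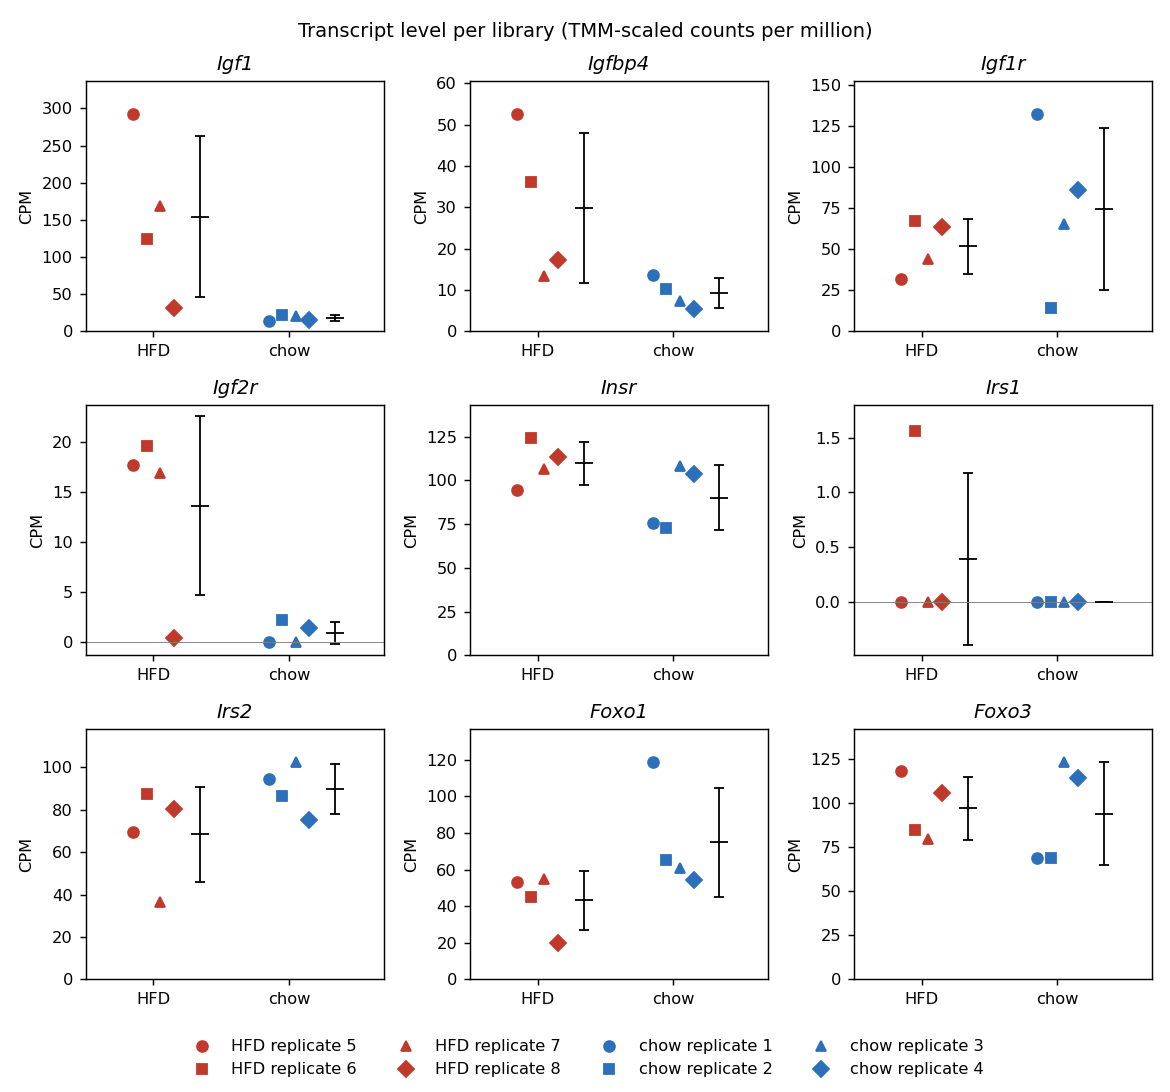
CPM of the 9 members in each library, with the HFD libraries in red left of the chow libraries in blue, 1 symbol per replicate, and the mean and SD of 4 libraries in black. Igf1 shows no overlap between the diets, Igf2r is split between HFD replicates 5 to 7 and the other 5 libraries, and Insr and Foxo3 lie at like levels in both diets.

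The start regions of Igf1, Igfbp4 and Igf2r are shown because these 3 members were above every chow library in both HFD replicate 5 and HFD replicate 6. Each is a window of 250 bases before to 50 bases after the start in RefSeq (GRCm38.p6), read along the gene's strand. Capitals mark matches, on either strand, to the TATA box (TATAAA), the E-box (CACGTG), the GC box (GGGCGG) and the CCAAT box (CCAAT). The letters TGTTTAC, bound by FoxO factors, and TTCNNNGAA, bound by STAT5, were searched too. Windows were found for 8 of the 9 members, Insr being the exception.
Igf1, chr10:87860861-87861160, plus strand: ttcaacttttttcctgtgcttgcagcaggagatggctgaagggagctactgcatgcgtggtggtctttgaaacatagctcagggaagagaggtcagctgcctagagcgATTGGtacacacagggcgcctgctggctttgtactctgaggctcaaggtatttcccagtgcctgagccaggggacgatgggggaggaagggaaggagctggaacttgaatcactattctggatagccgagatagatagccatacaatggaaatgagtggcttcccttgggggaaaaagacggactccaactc
Igfbp4, chr11:99040994-99041293, plus strand: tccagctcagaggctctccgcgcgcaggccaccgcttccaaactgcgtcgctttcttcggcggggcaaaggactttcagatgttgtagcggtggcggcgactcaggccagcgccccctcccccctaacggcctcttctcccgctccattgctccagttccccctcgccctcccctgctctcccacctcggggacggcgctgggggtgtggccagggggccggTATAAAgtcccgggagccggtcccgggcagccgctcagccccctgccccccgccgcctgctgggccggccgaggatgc
Igf2r, chr17:12769657-12769956, minus strand: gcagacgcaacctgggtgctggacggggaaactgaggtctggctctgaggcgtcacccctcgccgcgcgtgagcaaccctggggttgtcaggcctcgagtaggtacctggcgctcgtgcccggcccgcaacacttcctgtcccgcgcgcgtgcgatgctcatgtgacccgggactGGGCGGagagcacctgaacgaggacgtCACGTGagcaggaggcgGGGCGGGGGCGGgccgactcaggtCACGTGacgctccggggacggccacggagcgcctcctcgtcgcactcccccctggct

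The windows had little in common. Igf1 held 52.3% G and C with 6 CpG sites, close to the medians of 52.7% and 7 over the 32851 windows of this length, and its only match was a CCAAT box read on the other strand. Igfbp4 held 71.3% G and C with 27 CpG sites and a TATA box 28 bases before the start. Igf2r held 70.7% G and C with 34 CpG sites, 3 GC boxes and 2 E-boxes, which start 48 and 7 bases before the gene's start. TATA boxes occurred in 13.6% of all windows, E-boxes in 7.15%, GC boxes in 35.7% and CCAAT boxes in 37.4%. None of the 8 windows held the FoxO letters, found in 3.65% of windows, or the STAT5 letters, found in 8.30%, which says only that these letters are not in these windows. The Igf1 window lies inside exons of 2 of its 8 GENCODE transcripts, which begin further upstream, and the deposited counts do not tell these starts apart.

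The receptors for the hormones themselves were present in every library. Insr, the insulin receptor (chromosome 8, 3122061 to 3279617, minus strand), was at 94.7, 124, 106 and 113 CPM in HFD replicates 5 to 8, against 75.5, 72.8, 108 and 104 CPM in chow replicates 1 to 4. The diets overlapped, and the highest library was 1.31 times the lowest in HFD and 1.48 times in chow. It averaged 109.6 ± 12.4 CPM in HFD and 90.0 ± 18.5 CPM in chow (SD, n = 4 each), a log2 fold change of 0.28 (SE 0.31).

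Igf1r, the receptor for IGF1 (chromosome 7, 67952827 to 68233668, plus strand), was at 32.0, 67.6, 44.1 and 63.7 CPM in HFD replicates 5 to 8, against 133, 14.1, 65.7 and 86.4 CPM in chow replicates 1 to 4. All 4 HFD libraries lay inside the chow range, whose highest library exceeded the lowest 9.45-fold. It averaged 51.8 ± 16.8 CPM in HFD and 74.7 ± 49.2 CPM in chow (SD, n = 4 each), a log2 fold change of -0.53 (SE 0.52). The library with the most Igf1, HFD replicate 5, had the least Igf1r of the HFD group.

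Within libraries Insr was higher than Igf1r per kilobase of annotated exon, a comparison that does not use the diets. Its mean log2 excess over Igf1r was 1.17 ± 0.93 (SD, n = 8 libraries), and it was higher in 7 of 8 libraries (two-sided exact permutation test with sign flips over 256 arrangements, p = 0.0156, adjusted p = 0.0234 over 3 receptor, substrate and FoxO pairs). The log2 excess was 1.85, 1.17, 1.56 and 1.12 in HFD replicates 5 to 8, and -0.52, 2.65, 1.00 and 0.55 in chow replicates 1 to 4. Chow replicate 1, with the highest Igf1r level, was the exception. With 8 libraries the smallest p this test can give is 0.00781, and within 1 diet it cannot pass.

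Of the docking proteins, Irs2 carried nearly all the signal. Irs2 (chromosome 8, 10984681 to 11008458, minus strand) was at 69.7, 87.2, 36.7 and 80.3 CPM in HFD replicates 5 to 8, against 94.4, 86.3, 103 and 75.1 CPM in chow replicates 1 to 4. HFD replicate 7 was lowest, HFD replicates 5 and 7 lay below every chow library, and the diets overlapped. Irs2 averaged 68.5 ± 22.4 CPM in HFD and 89.6 ± 11.8 CPM in chow (SD, n = 4 each), a log2 fold change of -0.39 (SE 0.36). Irs1 (chromosome 1, 82233101 to 82291416, minus strand) had 9 counts in HFD replicate 6, or 1.56 CPM, and 0 counts in the other 7 libraries, so it was not tested. Per kilobase Irs2 was 80.7 times Irs1 in HFD replicate 6. In the libraries without Irs1 counts it was at least 83.9-fold to at least 267-fold higher, taking 3 counts of Irs1 per library as the limit. With Irs1 at 0 in 7 of 8 libraries the outcome of a sign-flip test on this pair was fixed by those zeros, and its p is not given. Both genes share exon bases with a gene on the opposite strand, 9530052E02Rik for Irs2 and Gm9747 for Irs1, which had 1 and 0 counts over the 8 libraries.

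The FoxO factors, which act when insulin and IGF signals are low, differed in how they varied. Foxo1 (chromosome 3, 52268336 to 52353221, plus strand) was at 53.2, 45.0, 55.0 and 20.1 CPM in HFD replicates 5 to 8, against 119, 65.4, 60.8 and 54.5 CPM in chow replicates 1 to 4. Of the HFD libraries 3 lay below every chow library, HFD replicate 7 came just inside the chow range, and chow replicate 1 stood far above the rest. It averaged 43.3 ± 16.1 CPM in HFD and 74.9 ± 29.8 CPM in chow (SD, n = 4 each), a log2 fold change of -0.79 (SE 0.44). Like Igf1 and Igf2r, Foxo1 was lower in HFD replicate 8 than in the other HFD libraries.

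Foxo3 (chromosome 10, 42181841 to 42276755, minus strand) was at 118, 84.4, 79.7 and 106 CPM in HFD replicates 5 to 8, against 68.7, 69.0, 123 and 114 CPM in chow replicates 1 to 4. The HFD libraries all lay inside the chow range. Foxo3 averaged 96.9 ± 18.0 CPM in HFD and 93.8 ± 29.1 CPM in chow (SD, n = 4 each), a log2 fold change of 0.05 (SE 0.33). Per kilobase Foxo3 was higher than Foxo1 in 7 of 8 libraries, with a mean log2 excess of 0.99 ± 0.92 (SD, n = 8; two-sided exact permutation test with sign flips, p = 0.0234, adjusted p = 0.0234 over the 3 pairs). The log2 excess was 1.34, 1.10, 0.73 and 2.58 in HFD replicates 5 to 8, and -0.60, 0.27, 1.21 and 1.26 in chow replicates 1 to 4. Chow replicate 1 was again the exception, here through its high Foxo1.

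Among the 8 members that passed the filter on low counts, 5 were higher and 3 lower in HFD, with a median log2 fold change of 0.17 beside -0.02 over the 10129 genes tested. By edgeR's quasi-likelihood test 0 of the 8 passed an adjusted p of 0.05, as did 0% of all genes tested, while DESeq2 called 25 genes, 0.247% of them, and 1 member, Igf1. With limma-voom 1 gene passed, 0.00987% of those tested, and 0 members. At an unadjusted p under 0.05 edgeR listed 3 members, Igf1, Igfbp4 and Igf2r, beside 542 of all genes, 5.35%. Every HFD library was above every chow library for 1 member, Igf1, and for 1.68% of all genes tested. Every HFD library was below every chow library for 0 members and for 1.71% of genes. Nothing is read from these counts, since the members were gathered from this comparison.

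Set per length, Igf1 changed place most between the diets, and other members, such as Foxo1, changed place too. Over all 8 libraries the mean CPM per kilobase of exon was 12.6 ± 2.96 for Foxo3, 12.5 ± 3.17 for Irs2, 8.73 ± 10.3 for Igf1, 7.26 ± 1.31 for Insr, 6.82 ± 3.22 for Foxo1, 4.43 ± 3.71 for Igfbp4, 3.77 ± 2.15 for Igf1r, 0.781 ± 0.966 for Igf2r and 0.0214 ± 0.0604 for Irs1 (SD, n = 8). Foxo3 exceeded Irs2 in 5 of 8 libraries, Irs2 exceeded Igf1 in 6 and Igf1 exceeded Insr in 3, so none of these neighbours was separated beyond its spread. Insr exceeded Foxo1 in 6 of 8 libraries, Foxo1 exceeded Igfbp4 in 5 and Igfbp4 exceeded Igf1r in 5. Igf1r exceeded Igf2r in 8 of 8 libraries, and Igf2r exceeded Irs1 in 6. In HFD Igf1 had the highest mean of the 9 members, 15.6 ± 11.0 CPM per kilobase, and in chow it was seventh in order, at 1.86 ± 0.417 (SD, n = 4 each). Its excess over Foxo3, the next in HFD, was 2.80 ± 10.4 and held in 3 of 4 libraries. Foxo1 had rank 6 in HFD and rank 3 in chow.

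**Figure D2:**
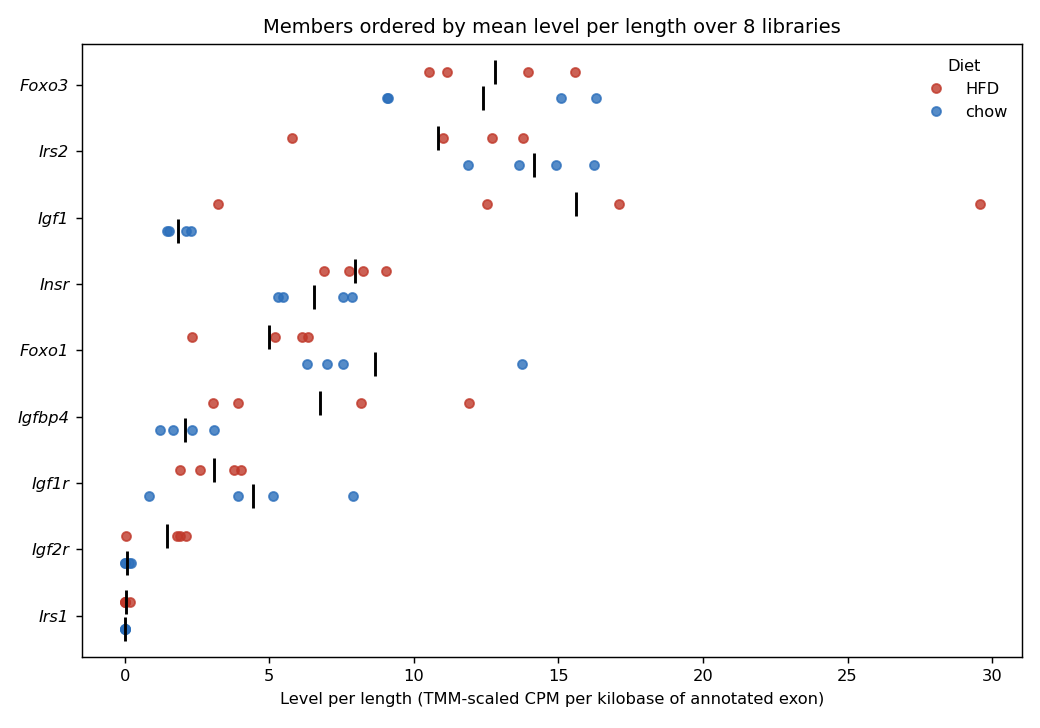
TMM-scaled CPM per kilobase of annotated exon for each member, ordered from the highest mean over 8 libraries at the top, with HFD libraries in red above chow libraries in blue and the diet means as black bars. Igf1 spans 3.22 to 29.6 in HFD and 1.45 to 2.29 in chow, while Irs1 and, outside HFD replicates 5 to 7, Igf2r lie near 0.

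Markers of other cells moved with part of these values. Col1a1, a fibrillar collagen gene of stromal cells, was at 72.5, 41.2, 30.8 and 0.201 CPM in HFD replicates 5 to 8 and at 0 in all 4 chow libraries. Col3a1 was at 144, 47.4, 61.5 and 0.201 CPM in HFD replicates 5 to 8, against 0.225, 0, 0 and 1.89 CPM in chow replicates 1 to 4. Dcn, a matrix proteoglycan gene, was at 14.3, 5.38, 6.53 and 0.201 CPM in HFD replicates 5 to 8 and at 0 in chow. Igf2r followed the same split, high in HFD replicates 5, 6 and 7 and at 2.19 CPM or less elsewhere. Igf1 was at its highest in the same 3 libraries. The remaining stromal sum in HFD replicate 8 was mostly the pericyte gene Rgs5, at 97.0 of its 106 CPM, and Rgs5 was at 78.8, 128 and 85.4 CPM in chow replicates 2, 3 and 4. The part of these cells in the Igf1, Igfbp4 and Igf2r values of HFD replicates 5 to 7 was not tested beyond the covariate fit given below. In HFD replicate 8 the 8 markers with counts were Rgs5, Sparc at 4.42 CPM, Acta2 at 1.61 CPM, Col1a2 at 1.41 CPM, Pdgfrb at 0.603 CPM, and Col1a1, Col3a1 and Dcn at 0.201 CPM each. In chow Sparc, a matrix protein gene, was at 23.8, 1.72, 1.24 and 0.472 CPM in replicates 1 to 4, and 3 to 5 of the 16 markers had counts in each library. The part of these cells in the values of those 5 libraries was not tested either.

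Some markers of resident and perivascular tissue macrophages, above all Mrc1, moved with Igf1 as well. The 14 markers summed to 2014, 942, 1278 and 518 CPM in HFD replicates 5 to 8, against 582, 557, 734 and 541 CPM in chow replicates 1 to 4. Of the 10 that were tested, 9 were higher and 1 lower in HFD (median log2 fold change 1.34), beside 48.6% higher of all genes tested. The lower one was Lyve1, at 10.7 ± 11.0 CPM in HFD and 12.9 ± 12.4 CPM in chow. Stab1, higher in HFD on average, was at 247 CPM in chow replicate 3, against 113, 199 and 104 CPM in HFD replicates 6, 7 and 8. Mrc1, the mannose receptor gene that dominates this sum, was at 1059, 522, 657 and 231 CPM in HFD replicates 5 to 8, against 202, 294, 321 and 228 CPM in chow replicates 1 to 4. Its order in HFD was that of Igf1, but in HFD replicate 8 it lay inside the chow range and Igf1 did not. Gas6, a ligand of the efferocytosis receptor Mertk, was at 50.2, 16.0, 14.3 and 1.41 CPM in HFD replicates 5 to 8, against 0, 0.156, 0 and 0 CPM in chow replicates 1 to 4. At 0 in HFD replicate 8 were 5 of the 14 markers, among them Cd163, Cbr2 and Folr2, and 3 to 7 were at 0 in each chow library. The part of these macrophages in the Igf1 values was not tested.

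**Figure D3:**
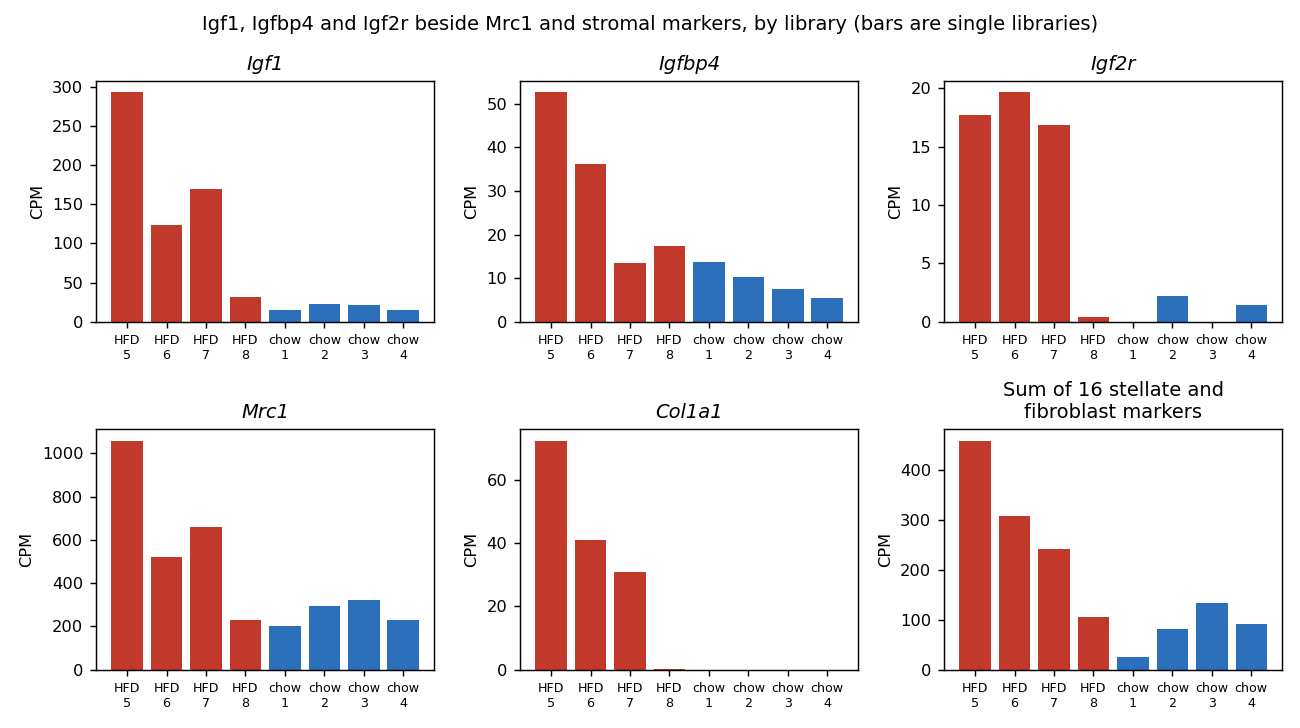
CPM in each library, HFD in red and chow in blue, for Igf1, Igfbp4, Igf2r, the macrophage receptor gene Mrc1, the collagen gene Col1a1 and the sum of 16 stellate and fibroblast markers; each bar is 1 library. Igf2r and Col1a1 are near 0 in HFD replicate 8 and in chow, while Igf1 is present in every library.

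The genes whose levels were most like those of Igf1 over the 8 libraries, by Pearson's r of log2 CPM, were Tgm2, Mrc1, Raph1, Eri2, Rell1, Hnrnpk, Fkbp5, Wbscr16, Cd36 and Tnfrsf23, with r of 0.98 to 0.93. These are descriptions over 8 points that share the split between the diets. Tgm2, a transglutaminase gene, was at 47.1, 16.0, 33.7 and 5.62 CPM in HFD replicates 5 to 8, against 2.47, 3.28, 5.81 and 2.12 CPM in chow replicates 1 to 4 (r = 0.98). Raph1, an actin regulator gene, averaged 80.3 ± 43.8 CPM in HFD and 21.6 ± 2.72 CPM in chow (SD, n = 4 each). Fkbp5, a co-chaperone of the glucocorticoid receptor, averaged 30.7 ± 18.3 CPM in HFD and 5.46 ± 3.64 CPM in chow, and Cd36, a fatty acid transporter gene, 322 ± 75.3 CPM in HFD and 167 ± 35.4 CPM in chow. Hnrnpk, which encodes an RNA-binding protein, followed Igf1 over a narrow range, 445 ± 49.7 CPM in HFD and 380 ± 20.4 CPM in chow. Of the 10 resident and perivascular macrophage markers tested, 10 had an r above 0 with Igf1 (median 0.64). So did the 3 tested of 16 stellate and fibroblast markers, Sparc, Pdgfrb and Rgs5 (median 0.77), and 5214 of the other 10128 genes (median 0.02). Above 0 were also 9 of 11 islet endocrine markers (median 0.36) and 5 of 7 acinar markers (median 0.06). Among macrophage sort and identity genes it was 4 of 8 (median 0.03). Pdgfrb passed the filter on low counts only through HFD replicates 5 to 7 and chow replicate 3. Cd209a and Cd163, of the resident list, passed through the same HFD libraries with chow replicate 1 and chow replicate 4, respectively. Igf1 was highest in those HFD libraries, so the filter favoured an r above 0 for these genes.

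With the diet means taken out, the 10 genes most like Igf1 were Mrc1, Surf4, Vars, Tbcd, Stk4, Wwp1, Pdia3, Zfp68, Hmox2 and Tgm2, with r of 0.99 to 0.94 between deviations in 8 libraries. Mrc1 and Tgm2 were on both lists. Surf4, an endoplasmic reticulum cargo receptor gene, was at 113, 40.5, 47.2 and 7.83 CPM in HFD replicates 5 to 8 and at 40.9 to 68.0 CPM in chow, so it was below every chow library in HFD replicate 8. Among the members, r with Igf1 over the 8 libraries was 0.89 for Igf2r, 0.80 for Igfbp4, 0.38 for Insr, 0.11 for Foxo3, -0.24 for Foxo1, -0.32 for Igf1r and -0.59 for Irs2. Between deviations from the diet means it was 0.79 for Igf2r, 0.68 for Foxo1, 0.44 for Igfbp4, 0.00072 for Foxo3, -0.26 for Insr, -0.31 for Irs2 and -0.43 for Igf1r.

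Of the other ligands and binding proteins few were present. Igf2, Igfals, Igfbp1, Igfbp2, Igfbp6, Htra1, Stc1 and Stc2 had 0 counts in every library, so 8 of 16 listed genes were not detected, which at this depth allows up to 0.468 to 0.708 CPM per library. Igfbp5 was at 25.2 CPM in HFD replicate 6 and at 0.603 CPM in HFD replicate 8, and at 0 in the other 6 libraries. Igfbp7 averaged 5.56 ± 3.34 CPM in HFD and 0.878 ± 1.62 CPM in chow, a log2 fold change of 2.66 (SE 1.57). Pappa, whose protease frees IGF from IGFBP4, had counts in HFD replicate 8 only, at 2.81 CPM. The related protease gene Pappa2 averaged 16.0 ± 11.0 CPM in HFD and 27.9 ± 40.7 CPM in chow. Ins1 and Ins2, the insulin genes of beta cells, averaged 432 ± 115 and 247 ± 36.7 CPM in HFD and 422 ± 153 and 246 ± 88.2 CPM in chow, with log2 fold changes of 0.04 (SE 0.26) and 0.01 (SE 0.26); as near-identical genes their counts are uncertain. Ide, the insulin-degrading enzyme gene, averaged 57.4 ± 24.7 CPM in HFD and 46.2 ± 2.81 CPM in chow (SD, n = 4 each).

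The growth hormone axis, which drives Igf1 in the liver, was represented by 4 tested genes of 6, 1 higher and 3 lower in HFD. Stat5a averaged 23.0 ± 14.0 CPM in HFD and 10.8 ± 6.14 CPM in chow, a log2 fold change of 1.08 (SE 0.80). Stat5b, its close relative, averaged 18.3 ± 17.7 CPM in HFD and 24.4 ± 6.20 CPM in chow, and the kinase gene Jak2 64.6 ± 37.9 CPM in HFD and 86.0 ± 57.0 CPM in chow. The growth hormone receptor gene Ghr was low, at 16.1, 1.04, 2.53 and 3.82 CPM in HFD replicates 5 to 8, against 0, 2.65, 15.1 and 6.61 CPM in chow replicates 1 to 4. HFD replicate 5 was the highest library in Ghr and, at 40.1 CPM, in Stat5a. Over all 8 libraries the diets overlapped in Ghr and in Stat5a.

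Over the pathway lists, those of ligands and of the growth hormone axis included, differences between the diets were mostly small against their spread. Over the 6 pathway lists 60 of 93 genes were tested, 29 higher and 31 lower in HFD, with a median log2 fold change of -0.03. Of these, 0 passed edgeR's adjusted p of 0.05 in either direction, as 0% of all genes did, and 3 had an unadjusted p under 0.05, 5.00% of the 60 beside 5.35% of all genes. Those 3 were Gab1, Pdpk1 and Ccng2. Gab1, a docking protein gene that works beside the IRS proteins, averaged 35.1 ± 11.9 CPM in HFD and 8.39 ± 2.22 CPM in chow (SD, n = 4 each), with every HFD library above every chow library and a log2 fold change of 2.06 (SE 0.68, edgeR adjusted p = 0.75). Pdpk1, which encodes the kinase PDK1 that activates Akt, averaged 138 ± 36.7 CPM in HFD and 86.2 ± 17.8 CPM in chow, again without overlap (log2 fold change 0.68, SE 0.30, edgeR adjusted p = 0.89). Ccng2, a cyclin gene that FoxO factors are known to activate, averaged 80.1 ± 24.9 CPM in HFD and 131 ± 21.4 CPM in chow (log2 fold change -0.71, SE 0.31, edgeR adjusted p = 0.89).

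Adaptors and receptor modulators split into 4 higher and 7 lower of 11 tested (median log2 fold change -0.06). Sh2b2, an adaptor of the insulin receptor, averaged 12.9 ± 10.1 CPM in HFD and 41.6 ± 55.2 CPM in chow, Shc1 40.7 ± 29.5 CPM in HFD and 20.7 ± 14.1 CPM in chow, and the ubiquitin ligase gene Cblb 49.6 ± 13.1 CPM in HFD and 75.6 ± 30.6 CPM in chow. Cbl, the most abundant gene of this list, averaged 575 ± 86.2 CPM in HFD and 600.0 ± 43.5 CPM in chow. The exchange factor gene Sos1 averaged 76.3 ± 21.4 CPM in HFD and 75.1 ± 32.0 CPM in chow, and the phosphatase gene Ptpn11 67.7 ± 42.0 CPM in HFD and 74.2 ± 76.0 CPM in chow.

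Of 17 tested genes of PI3-kinase and Akt, 10 lay above chow and 7 below it (median log2 fold change 0.11). The regulatory subunit gene Pik3r1 averaged 309.9 ± 73.3 CPM in HFD and 242 ± 69.5 CPM in chow, and Gsk3b, a kinase inhibited by Akt, 268 ± 95.8 CPM in HFD and 306 ± 44.2 CPM in chow. Gsk3a, the close relative of Gsk3b, averaged 20.7 ± 7.59 CPM in HFD and 36.1 ± 20.2 CPM in chow.

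The mTOR list was evenly split, 6 above chow and 6 below it of 12 tested (median log2 fold change 0.01). Mtor averaged 62.5 ± 16.4 CPM in HFD and 39.7 ± 9.98 CPM in chow (log2 fold change 0.65, SE 0.43), and Rps6kb1, the S6 kinase gene, 128 ± 28.1 CPM in HFD and 134 ± 22.9 CPM in chow. Deptor, an inhibitor of mTOR, averaged 96.3 ± 30.8 CPM in HFD and 88.4 ± 45.9 CPM in chow, and Rps6, the ribosomal protein that S6 kinase phosphorylates, 132 ± 30.9 CPM in HFD and 166 ± 35.4 CPM in chow. The translation repressor genes Eif4ebp1 and Eif4ebp2 averaged 13.9 ± 12.0 and 36.8 ± 11.5 CPM in HFD and 5.64 ± 6.03 and 23.8 ± 9.26 CPM in chow.

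Among the other FoxO genes and FoxO targets 4 of 11 tested lay above chow and 7 below it (median log2 fold change -0.14). Txnip, a glucose-responsive regulator of thioredoxin, averaged 379 ± 65.6 CPM in HFD and 458 ± 93.6 CPM in chow, the antioxidant enzyme gene Cat 309.5 ± 50.5 CPM in HFD and 262 ± 37.4 CPM in chow, and the repressor gene Bcl6 50.3 ± 17.0 CPM in HFD and 69.2 ± 13.5 CPM in chow. The cell death gene Bcl2l11 averaged 225 ± 73.4 CPM in HFD and 247 ± 98.3 CPM in chow (SD, n = 4 each).

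**Figure D4:**
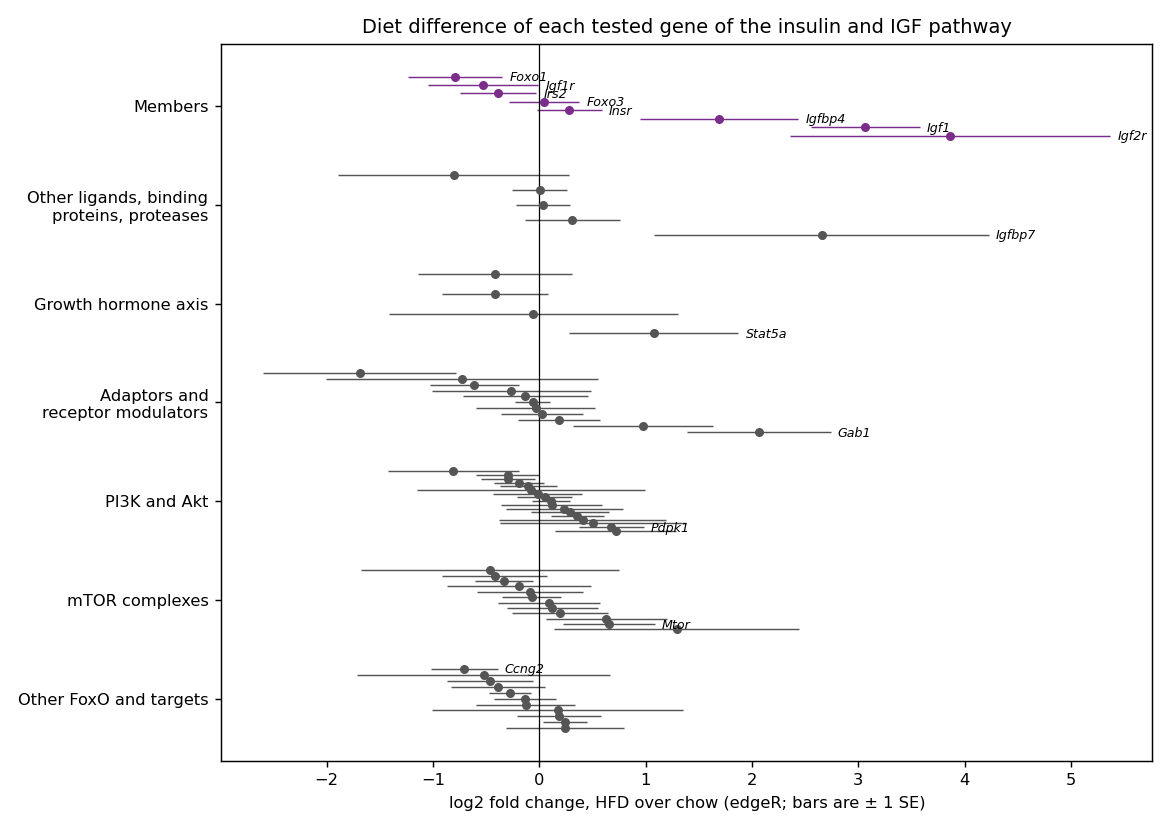
Log2 fold change of HFD over chow with 1 SE for the 8 tested members (purple) and the 60 tested genes of 6 pathway lists (grey), with the members and the gene of smallest p in each list named. Igf2r (3.87), Igf1 (3.07) and Igfbp4 (1.69) lie farthest to the right among the members. The median of the members is 0.17 and the list medians lie between -0.24 and 0.11. Of the pathway genes, Igfbp7 (2.66) and Gab1 (2.06) lie beyond Igfbp4.

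With any 1 library left out the differences of Igf1, Igfbp4 and Igf2r kept their direction. For Igf1 this was fixed beforehand, since every HFD library was above every chow library. The direction was all but fixed for Igfbp4 and Igf2r too, with 3 of 4 HFD libraries above every chow library. It is therefore no support for these differences. When the stromal markers entered the fit, the differences of Igf1 and Igfbp4 were smaller and that of Igf2r turned. Without 1 library at a time the log2 fold change of Igf1 ran from 2.56, without HFD replicate 5, to 3.40, without HFD replicate 8. Igfbp4 ran from 1.27 to 1.94 and Igf2r from 3.47 to 4.80. With the mean log2 level of the stellate and fibroblast list as a covariate the log2 fold change was 0.50 (SE 0.64) for Igf1, 0.67 (SE 1.24) for Igfbp4 and -1.53 (SE 2.75) for Igf2r. That list was itself unequal between the diets, so such a fit cannot tell the 2 apart. With the islet endocrine list as covariate they were 2.86 (SE 0.72), 2.11 (SE 1.12) and 2.06 (SE 2.29).

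**Figure D5:**
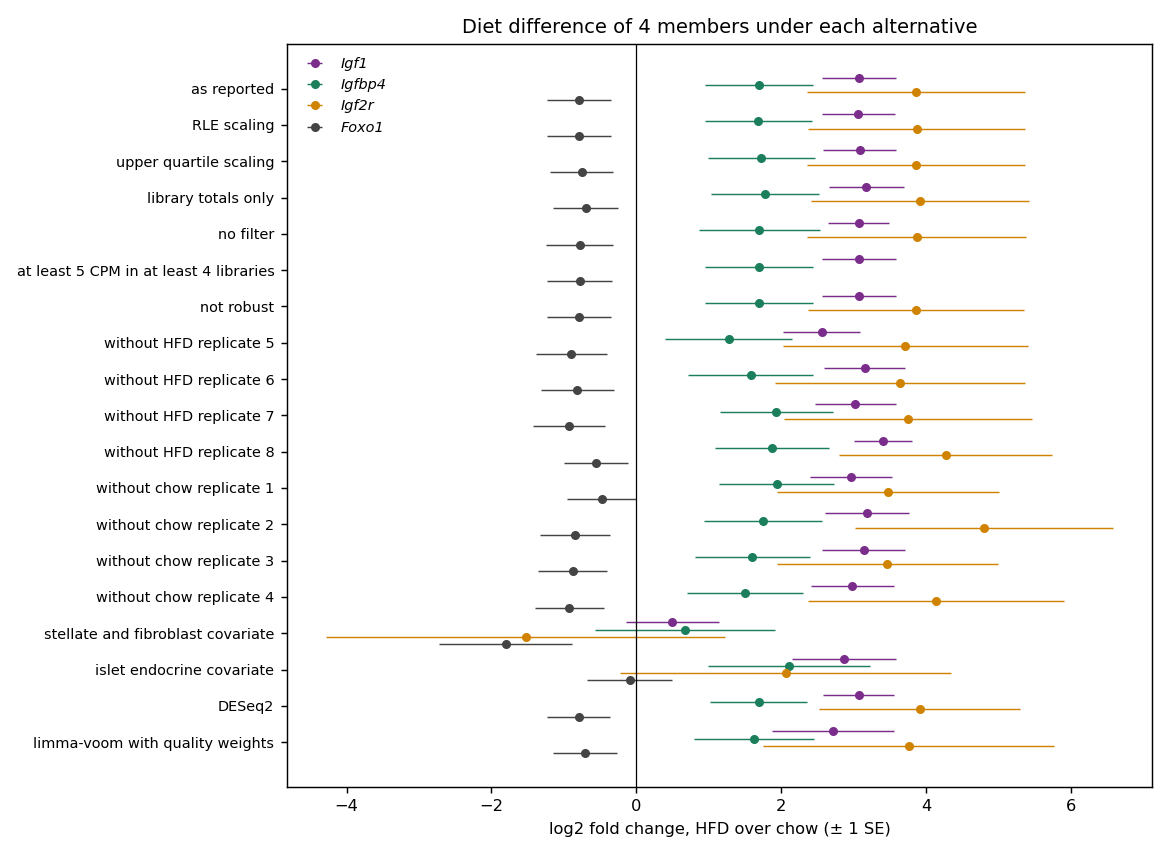
Log2 fold change of HFD over chow with 1 SE for Igf1, Igfbp4, Igf2r and Foxo1 as reported and under each alternative in scaling, filter, library set, covariate and tool. Igf1 stays between 2.56 and 3.40 except with the stellate and fibroblast covariate (0.50), where Igf2r lies at -1.53.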

How the data were processed

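RNA of islet macrophages positive for CD11b and F4/80 was measured in 8 libraries, 4 per diet, each from a pool of 2 mice. The submitters' processing notes name FastQC, Trim Galore, STAR and the build GRCm38, and no counting program or strand setting is named in them or in the labels. The table the authors deposited holds expected counts, not scaled between libraries, in which 7.66% to 8.32% of the values above 0 were not whole. They were rounded before all tests.

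Genes were tested with edgeR (version 4.0.16, R 4.3.3): TMM scaling, filterByExpr by diet, a robust quasi-likelihood fit on diet without covariates, and a two-sided threshold of 0.05 after Benjamini-Hochberg adjustment; SE is from the same fit. Log2 levels for correlations used a prior count of 2. Lengths are the union of exons in GENCODE M21 on GRCm38. Pairs were compared as log2 counts per kilobase, 1 count added, by exact sign-flip permutation. The edgeR and sign-flip steps were tested on simulated data. The series' design text says that libraries are separate pools, and p-values measure the spread between them.

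Members, lists and tests were chosen with earlier results of these data known. Named were all members, up to 4 genes per pathway list by smallest p and up to 3 by highest mean, and the 10 genes most like Igf1, except that some genes of the PI3-kinase and Akt list are not reported here; other genes, such as Igfbp5, Pappa and the markers, were chosen after their values were seen. Alternatives were RLE, upper-quartile and total-count scaling, no filter, a minimum of 5 CPM in 4 libraries or more, each of the libraries omitted, 2 marker-list covariates, a fit that was not robust, DESeq2 (1.42.0) and limma-voom with quality weights (limma 3.58.1), and for pairs other lengths or 1 diet alone.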

Additional observations from a re-analysis of the deposited data

Results flagged for a closer look

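Of 17 groups of 4 libraries examined, the 9 members by diet with the group at 0 throughout left out, 3 held a library far from the other 3. For normally distributed values chance flags about 1 in 20 groups, and that rate was not checked for these CPM. It does not apply to Irs1, where 3 of 4 values were 0 and any count in the other library would stand apart. Igf2r was at 0.402 CPM in HFD replicate 8, against 16.9, 17.7 and 19.6 CPM in the other HFD libraries, a gap of 0.856 of the range. Irs1 was at 1.56 CPM in HFD replicate 6 and at 0 in the other HFD libraries. Foxo1 was at 119 CPM in chow replicate 1, against 54.5, 60.8 and 65.4 CPM in the other chow libraries, a gap of 0.831 of the range. In chow replicate 1 Igf1r was also at its highest, 133 CPM, and the islet endocrine and stromal marker sums were at their lowest, 459 and 24.5 CPM. The part of either in these values was not tested beyond the 2 covariate fits. The log2 fold change of Foxo1 was -0.79 without a covariate. It was -0.09 (SE 0.58) with the islet endocrine list and -1.80 (SE 0.91) with the stellate and fibroblast list. That of Igf1r was -0.53 without a covariate, 0.31 (SE 0.72) with the endocrine list and -0.13 (SE 0.94) with the stromal list.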

How the results depend on the processing

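The count of genes called at an adjusted p of 0.05 was 0 by edgeR, with 542 at an unadjusted p under 0.05. It was 45 with no filter, 25 with DESeq2 and 1 with limma-voom, and 0 to 11 when each library was omitted once, 11 without HFD replicate 8. Igf1r turned to 0.31 with the islet endocrine covariate and Igf2r to -1.53 with the stellate and fibroblast covariate. Foxo3 ran from -0.0792 to 0.209 with 1 library omitted, and turned to -0.0576 without HFD replicate 5, -0.0792 without chow replicate 1, -0.0758 without chow replicate 2 and -0.29 with the islet endocrine covariate. The causes were not tested. Other scalings moved the median of all genes by at most 0.07 on the log2 scale and turned no member.

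The log2 excess of Insr over Igf1r was 1.42 in the HFD libraries alone and 0.92 in chow alone, that of Foxo3 over Foxo1 1.44 and 0.54, and that of Irs2 over Irs1, which depends on the added count, 8.08 and 9.31. With 4 libraries the test cannot pass (adjusted p = 0.125 in HFD and 0.375 in chow, exact permutation test). The other lengths, and leaving out any 1 library, kept the Insr and Foxo3 pairs past the threshold, with adjusted p of at most 0.0469 by the exact permutation test. No paired analysis was possible because replicates are numbered 1 to 4 in chow and 5 to 8 in HFD. Low counts limit Irs1, Igf2r in chow and the undetected ligands.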
